A study of Sus scrofa with 10 samples.

Results

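The cytosolic ribosome builds every protein that the nucleus encodes, and its protein subunits are among the most abundant messages of most cells. Most subunit proteins join ribosomal RNA in the nucleolus, usually as a single copy per ribosome, while some, such as the stalk proteins RPLP1 and RPLP2, are added in the cytoplasm. The messages of these genes start with a pyrimidine tract through which mTOR and LARP1 control their translation together. In the liver, which secretes most plasma proteins, ribosome content is known to follow feeding and growth.

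The genes described here are the cytosolic ribosomal proteins, taken as every identifier of the liver table whose pig gene symbol starts with RPL or RPS followed by a digit, A or P, without the RPS6K kinases, and whose mean over all libraries is at least 1 RPKM (read density scaled to gene length and library size). Of 25009 identifiers, 28 met the rule. No identifier with such a symbol had a mean under 1 RPKM, so the level limit removed none. They comprise 9 genes of the large subunit, 14 of the small subunit and 5 paralogs or like-named genes. A RefSeq gene table of the pig holds 84 symbols of this form, of which 28 were matched to an identifier of the table. The other 56, RPLP0, RPSA, RPS6, RPS19, RPL10, RPL13A and RPS27A among them, were matched to no identifier by name and are not analysed here.

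Liver RNA of male pigs was sequenced in 10 samples, with 5 samples of the group high for growth and fatness and 5 of the group low. The age label is 175 throughout, with no unit, and no further treatment, genotype or breed is stated in the labels. Nothing in the labels ties a sample to its own animal, so the p-values cover only the variation among these samples, which may be technical. In a piece of tissue, fewer cells of a type and less RNA per cell cannot be told apart.

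The libraries held 539327 to 567220 summed RPKM, and 16195 to 16802 genes had a value above 0. Absolute depth is unknown, and relative to high replicate 1 it lay between 0.748 and 1.05. Hepatocyte markers summed to between 52306 and 82029 RPKM in every library, as the tissue label asks. High replicates 1 and 5 held nervous system markers at 5.85 and 6.79 RPKM summed over 6 genes, against at most 0.44 RPKM in each other library. The genes of mitochondrial DNA took 10.1% to 20.2% of the summed RPKM, with the highest share in low replicate 4.

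The 23 subunit messages, without the like-named genes, were high in all 10 libraries, except RPS21, which fell to 33.4 RPKM in low replicate 3. Their means over the libraries ran from 60.1 RPKM for RPS21 to 780 RPKM for RPS12, a 12.97-fold range on the RPKM scale. Of the 28 genes, 23 had a mean of at least 100 RPKM and 12 stood among the 200 highest of the 10931 genes that reached a mean of 1 RPKM. Gene lengths behind the RPKM values were not at hand, so the order of the genes rests on the authors' gene models.

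**Figure D1:**
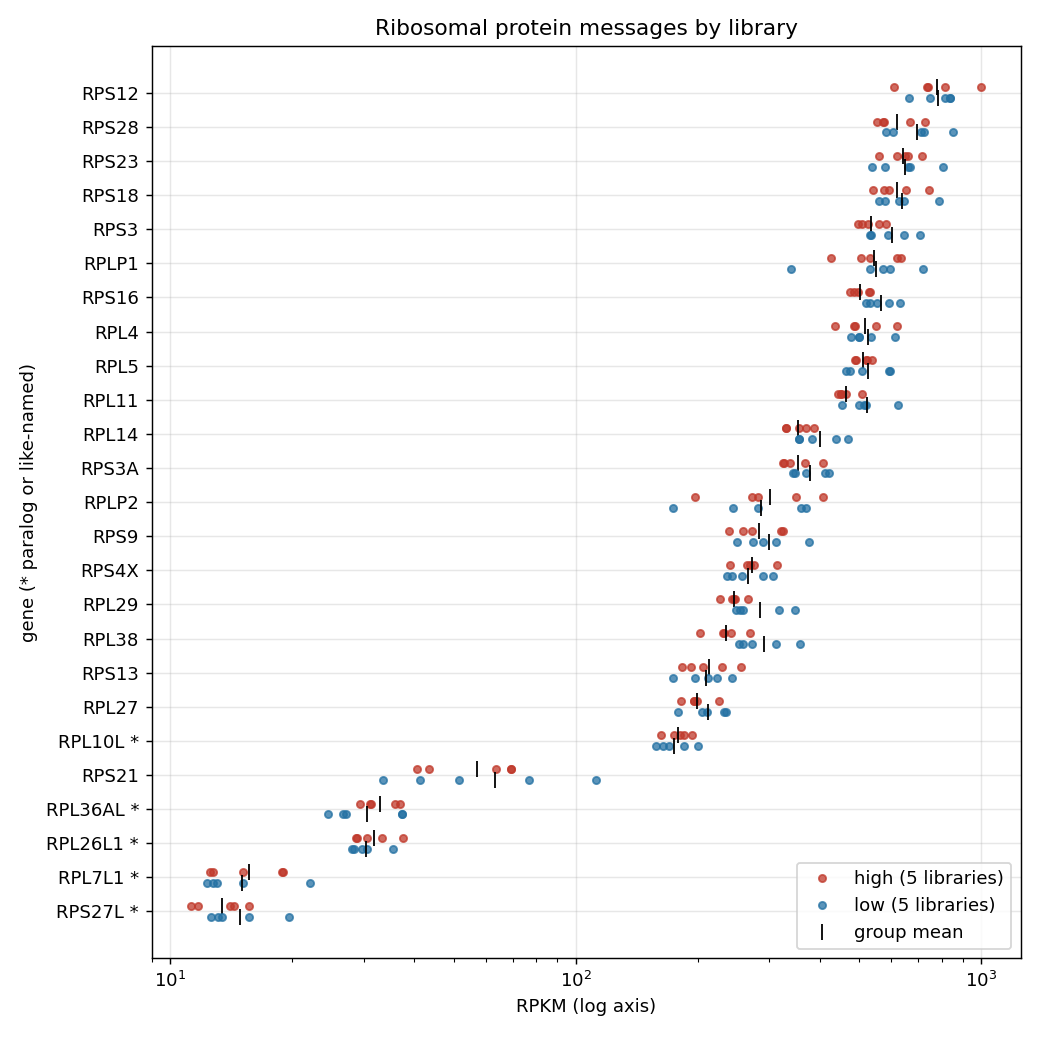
RPKM on a log axis for 25 of the 28 ribosomal protein genes, with 1 point per library (high above, low below) and a tick at each group mean (n = 5). The high and low points of every gene overlap, subunit genes other than RPS21 lie above 150 RPKM, and 4 of the 5 like-named genes lie below 40 RPKM.

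No ribosomal protein gene passed the test of high against low. In limma, 0 of the 28 had an adjusted p under 0.05 (Benjamini-Hochberg over all 10931 genes tested), where the background is 0.0% of all genes, and the smallest adjusted p among them was 0.961. At an unadjusted p under 0.05 the count was 0 of 28, where the background is 4.55% (497 genes), with 2.27% higher in high and 2.28% higher in low. In all 28 genes the values of high and low overlapped, where the background of genes without overlap is 0.805%. The differences in mean log2(RPKM + 1), high minus low, ran from -0.30 to 0.12 with standard errors of 0.11 to 0.31. Every 95% interval included 0, and 25 of the 28 lay wholly within 0.5 log2 units of 0.

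On the log2 scale 19 of the 28 genes had the higher mean in low, and 9 in high, where the background is 51.2% and 48.8% of all genes tested, and their median difference was -0.04, against -0.01 over all genes tested. Without the like-named genes the count was 18 of 23. Among the 548 tested genes that averaged 100 RPKM or more, 58.9% had the higher mean in low, with a median difference of -0.05. The count was 12 of 28 without low replicate 2, 16 without low replicate 4 and 24 without high replicate 3 or without low replicate 5. With quantile normalization it was 14 of 28. Tested immune cell markers had lower means in high. This held for 7 of 7 tested T and NK cell markers, with a median log2 difference of -0.44. Of these, 3 had an unadjusted p under 0.05 in limma, where the background is 4.55%, and 0 an adjusted one. It held too for 4 of 4 tested Kupffer cell and macrophage markers (median -0.29, 0 at an unadjusted p under 0.05). Among other lists, 2 of 2 tested red blood cell markers were also lower in high. In contrast, 3 of 3 tested endothelial markers were higher in high, and hepatocyte markers split 4 and 4. The part of these markers in the count of ribosomal protein genes was not tested.

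**Figure D2:**
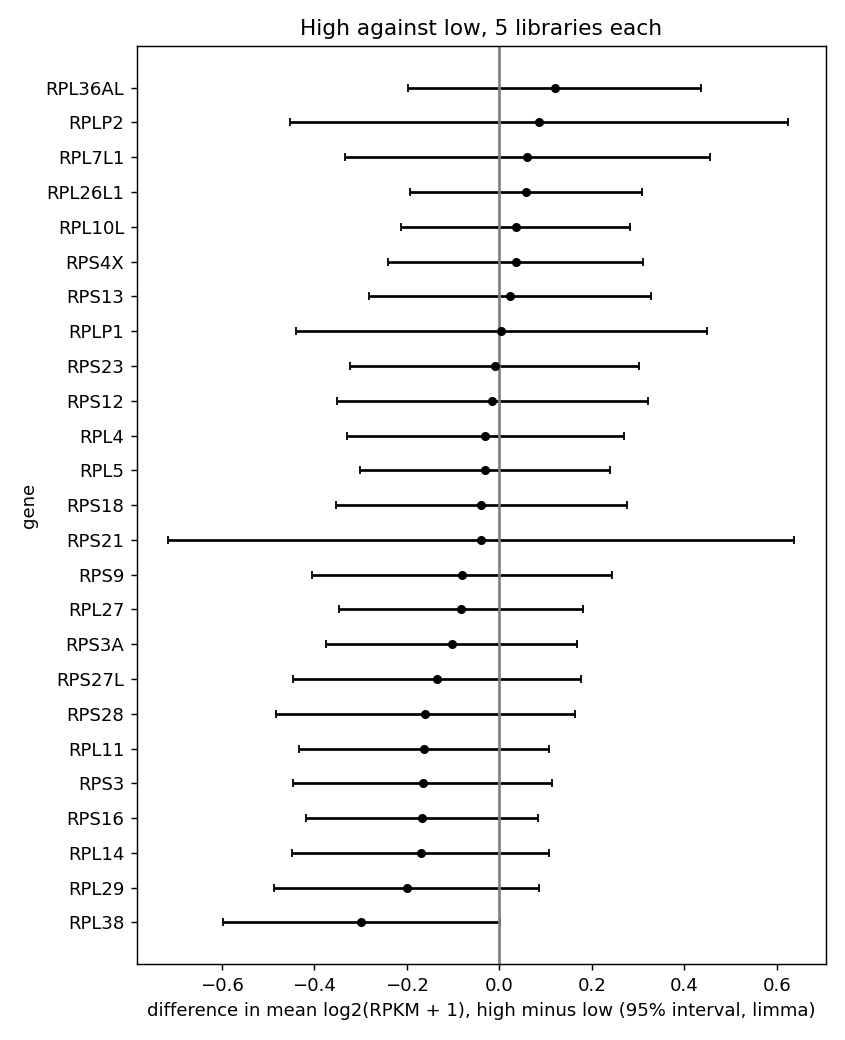
Difference in mean log2(RPKM + 1), high minus low, for 25 of the 28 genes, each with its 95% interval from limma (5 libraries in each group). Every interval includes 0, the lowest estimate is -0.30 for RPL38 and the highest is 0.12 for RPL36AL.

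The summed level of the 28 genes was 9160 ± 723 RPKM in high and 9652 ± 1009 RPKM in low (SD, n = 5 each). By library it was 9094, 9529, 10190, 8468 and 8521 RPKM in high replicates 1 to 5, against 9261, 10956, 9000, 10461 and 8584 RPKM in low replicates 1 to 5. The groups overlapped, the highest and lowest libraries differed 1.29-fold, and the highest sums were those of low replicates 2 and 4 and high replicate 3. As a share of the summed RPKM of all genes the level was 1.66% ± 0.111 in high and 1.74% ± 0.178 in low (SD over 5 libraries each). The log2 ratio of the mean sums, high over low, was -0.08. Leaving out 1 library gave -0.03 without low replicate 2, -0.04 without low replicate 4, -0.05 without high replicate 4, -0.11 without low replicate 5 and -0.12 without high replicate 3. No test was made of the sum, because the genes were chosen with earlier results known.

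**Figure D3:**
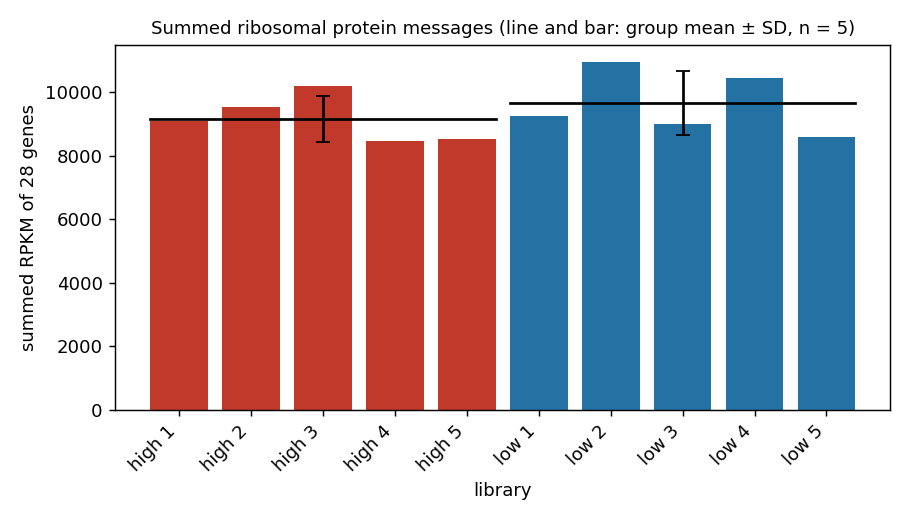
Summed RPKM of the 28 genes in each library, high left and low right, with the group mean and SD (n = 5 each). The bars run from 8468 RPKM in high replicate 4 to 10956 RPKM in low replicate 2, and the groups overlap.

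In the large subunit, RPL38 had the smallest p of the 28 genes. RPL38, which in mice is needed for the translation of Hox messages, had 203, 269, 232, 231 and 241 RPKM in high replicates 1 to 5, against 259, 312, 252, 358 and 272 RPKM in low replicates 1 to 5. Only high replicate 2 lay above any low library, and low replicates 4 and 2 were the highest. Its mean was 235 ± 23.6 RPKM in high and 291 ± 44.3 RPKM in low (SD, n = 5 each), a log2 difference of -0.30 (SE 0.14, 95% interval -0.60 to 0.00, unadjusted p = 0.0510, adjusted p = 0.961 in limma). The authors' deposited table gave RPL38 a signed fold of 1.21 with a p of 0.03, where a positive fold goes with the higher mean in low for this gene.

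RPL29, a small basic protein at the surface of the large subunit, had means of 246 ± 13.6 RPKM in high and 285 ± 44.4 RPKM in low (SD, n = 5 each), with a log2 difference of -0.20. RPL14, another surface protein of the large subunit, had 354 ± 24.8 RPKM in high and 400.2 ± 51.1 RPKM in low, with a log2 difference of -0.17. RPL27 had 199.6 ± 16.1 RPKM in high and 212 ± 22.6 RPKM in low. All of these genes, like RPL38, were highest in low replicate 4. RPL4, part of the wall of the tunnel through which the new chain leaves, was instead highest in high replicate 3, and its means were 515 ± 71.1 RPKM in high and 525 ± 53.3 RPKM in low.

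RPL5 and RPL11 bind the 5S ribosomal RNA together and, outside the ribosome, bind and block MDM2, the ligase that marks p53 for degradation. RPL11 had 450.1, 507, 465, 451 and 443 RPKM in high replicates 1 to 5, against 499, 519, 452, 622 and 514 RPKM in low replicates 1 to 5. Low replicates 4, 2 and 5 lay above every high library, and low replicates 1 and 3 did not. Its log2 difference was -0.16 (SE 0.12, adjusted p = 0.961 in limma). RPL5 had means of 512 ± 20.8 RPKM in high and 526 ± 63.2 RPKM in low, with a log2 difference of -0.03. The ratio of RPL5 to RPL11 was 1.11 ± 0.0621 in high and 1.01 ± 0.0824 in low (SD over 5 libraries each), and it lay between 0.922 and 1.20 in every library.

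RPLP1 and RPLP2 form the acidic stalk of the large subunit, the arm that recruits elongation factors. RPLP1 had 505, 633, 620.0, 532 and 425 RPKM in high replicates 1 to 5, against 595, 718, 532, 572 and 340 RPKM in low replicates 1 to 5. RPLP2 had 282, 349, 408, 272 and 197 RPKM in high replicates 1 to 5, against 359, 370, 282, 244 and 174 RPKM in low replicates 1 to 5. Both stalk messages were lowest in low replicate 5 and next lowest in high replicate 5, so the spread crossed the groups. RPLP2 had a log2 difference of 0.09 (SE 0.24) and RPLP1 of 0.00 (SE 0.20). RPLP1 had the slightly higher mean RPKM in low (543 ± 85.9 RPKM in high, 551 ± 137 RPKM in low), although its mean on the log2 scale was higher in high. The ratio of RPLP1 to RPLP2 varied less than either message, with a coefficient of variation of 12.3% over the 10 libraries, against 19.7% for RPLP1 and 26.1% for RPLP2. It was lowest in high replicate 3, at 1.52, and highest in low replicate 4, at 2.34.

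**Figure D4:**
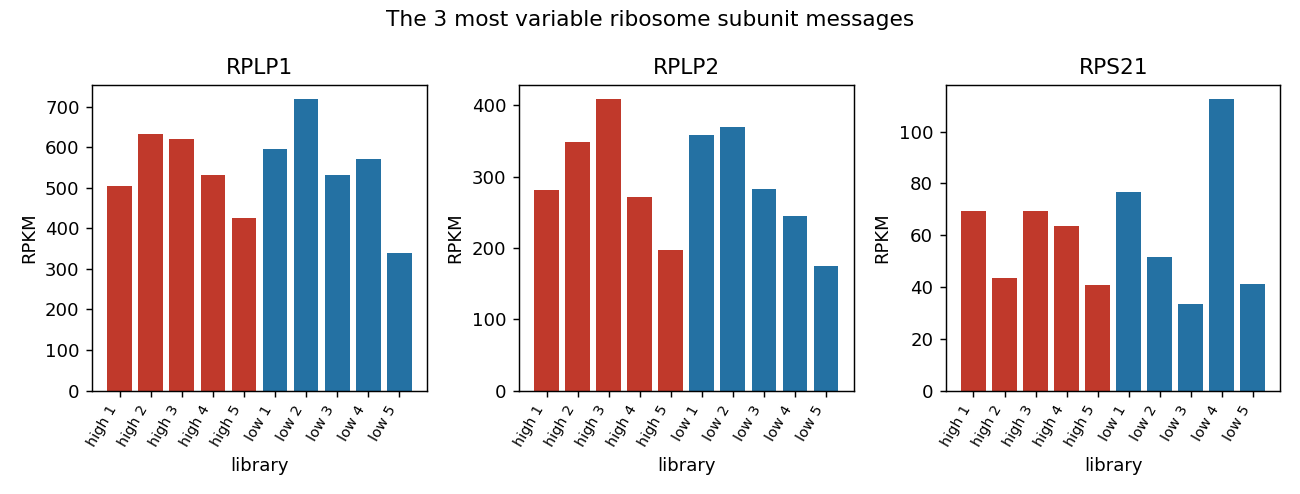
RPKM of RPLP1, RPLP2 and RPS21 in each library, high left and low right, on axes that start at 0. RPLP1 and RPLP2 are lowest in low replicate 5 (340 and 174 RPKM) and RPS21 is highest in low replicate 4 (112 RPKM).

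In the small subunit RPS21 was the least abundant and the most variable of the 14 genes. RPS21, a small protein on the solvent side that takes part in the maturation of the small subunit, had 69.2, 43.4, 69.2, 63.5 and 40.6 RPKM in high replicates 1 to 5, against 76.6, 51.5, 33.4, 112 and 41.3 RPKM in low replicates 1 to 5. Low replicates 4 and 3 were its highest and lowest libraries, a 3.36-fold range within the low group. Its coefficient of variation was 39.2%, against 9.01% to 14.6% for the other small subunit genes described here. Its log2 difference was -0.04 with a 95% interval of -0.72 to 0.64, the widest of the 28 genes.

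The genes at the decoding and message-binding sites did not separate the groups either. RPS23, at the decoding centre, had means of 641 ± 57.1 RPKM in high and 649.6 ± 103 RPKM in low (SD, n = 5 each). RPS3, at the entry of the message channel, had 534 ± 35.0 RPKM in high and 602 ± 75.0 RPKM in low, with a log2 difference of -0.17. RPS28, at the exit of the message channel, had 619 ± 74.8 RPKM in high and 694 ± 107 RPKM in low, with a log2 difference of -0.16. RPS16, whose tail reaches the transfer RNA in the peptidyl site, had 503 ± 25.6 RPKM in high and 566 ± 45.7 RPKM in low, with a log2 difference of -0.17. RPS18, in the head of the small subunit, had 621 ± 79.8 RPKM in high and 639 ± 89.1 RPKM in low. RPS9, which bears on the accuracy of decoding, had 283 ± 38.0 RPKM in high and 300.1 ± 47.8 RPKM in low. The mean of each of these genes was lower in high than in low, and none of the differences passed.

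RPS12, a protein of the head of the small subunit, was the highest message of all, with 813, 738, 998, 611 and 735 RPKM in high replicates 1 to 5, against 746.5, 835, 838, 816 and 665 RPKM in low replicates 1 to 5. Its highest and lowest libraries were both in high, and its log2 difference was -0.01. RPS4X, the X-linked form of the protein, had means of 272 ± 26.5 RPKM in high and 266 ± 30.3 RPKM in low. RPS3A, a protein of the platform side, had 352 ± 35.4 RPKM in high and 379 ± 36.3 RPKM in low. RPS13 had 213 ± 29.7 RPKM in high and 209.8 ± 26.2 RPKM in low. Both groups of each gene overlapped.

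The 5 like-named genes were lower, with 4 of them between 14.2 and 31.7 RPKM on average. RPS27L, a paralog of RPS27 that p53 induces, had 13.4 ± 1.84 RPKM in high and 14.9 ± 2.91 RPKM in low (SD, n = 5 each). RPL7L1, which is known from assembly intermediates of the large subunit, had 15.6 ± 3.14 RPKM in high and 15.1 ± 4.07 RPKM in low. RPL26L1 had 31.8 ± 3.68 RPKM in high and 30.4 ± 2.95 RPKM in low. RPL36AL, nearly identical to RPL36A, had 32.9 ± 3.29 RPKM in high and 30.6 ± 6.19 RPKM in low, with the highest log2 difference of the 28 genes, 0.12. None of these separated the groups.

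RPL10L stood apart from the other like-named genes in level. In humans and mice RPL10L is a retrogene of the X-linked RPL10 that works in the testis. Its deposited level in these liver libraries was 181, 193, 184, 163 and 175 RPKM in high replicates 1 to 5, against 184, 199.7, 158, 164 and 169 RPKM in low replicates 1 to 5. Its coefficient of variation, 7.74%, was the smallest of the 28 genes. RPL10 itself was matched to no identifier by name, and reads of near-identical copies could be split or misplaced between them, so the value of RPL10L is uncertain. The same holds for RPL36AL, RPL26L1 and RPS27L, whose parent genes were also matched to none, and processed copies of ribosomal protein genes are common in mammalian genomes.

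The positions of the genes were examined for direct neighbours and overlaps, not for distance. In the RefSeq gene table of another build, Sscrofa11.1, 28 of 28 were found and 0 lay next to another of the 28. There 4 of them overlap another gene by start and end. Exons and strand were not compared, nor were the gene models of the authors' build. With a kit that keeps no strand, any reads from shared sequence cannot be assigned. RPL29 overlaps ACY1, which had 98.1 ± 19.9 RPKM in high and 91.9 ± 13.5 RPKM in low (SD, n = 5 each). RPS18 overlaps VPS52, which had 16.6 ± 1.36 RPKM in high and 17.9 ± 2.65 RPKM in low. RPS28 overlaps NDUFA7 and RPS4X overlaps a pseudogene.

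The spread of the 28 messages between libraries crossed the groups. Their median coefficient of variation over the 10 libraries was 12.3%, against 22.3% over all genes tested and 21.3% over those with a mean of at least 100 RPKM. In low replicate 2, 25 of the 28 genes lay above their own median over the libraries, and the count was 22 in both high replicate 3 and low replicate 4. In high replicate 4 the count was 3. The median deviation of the 28 genes from their own mean was 0.21 on the log2 scale in low replicate 2, where that of all genes tested was 0.12. It was 0.12 in high replicate 3 and 0.13 in low replicate 4, where that of all genes tested was 0.00 and -0.03. In low replicate 5 it was -0.09, where that of all genes was -0.16.

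The genes did not peak in the same library. Low replicate 4 held the highest value of 11 genes, among them RPL5, RPL11, RPL14, RPL27, RPL29, RPL38, RPS3, RPS21, RPS28 and RPS27L. Low replicate 2 held that of 9 genes, among them RPLP1, RPS3A, RPS9, RPS16, RPS18, RPS23, RPL10L and RPL7L1. High replicate 3 held that of 6 genes, among them RPL4, RPLP2, RPS4X, RPS12 and RPS13. The lowest values fell mostly in low replicates 3 and 5 (7 and 6 genes), high replicate 5 (5 genes) and high replicates 1 and 4 (4 genes each). The ratio of RPS28 to RPS12 shows this spread within the subunit, with 0.572 in high replicate 3 against 1.09 in high replicate 4, and means of 0.822 ± 0.214 in high and 0.892 ± 0.129 in low (SD over 5 libraries each). These groupings were read from the values and were not tested.

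**Figure D5:**
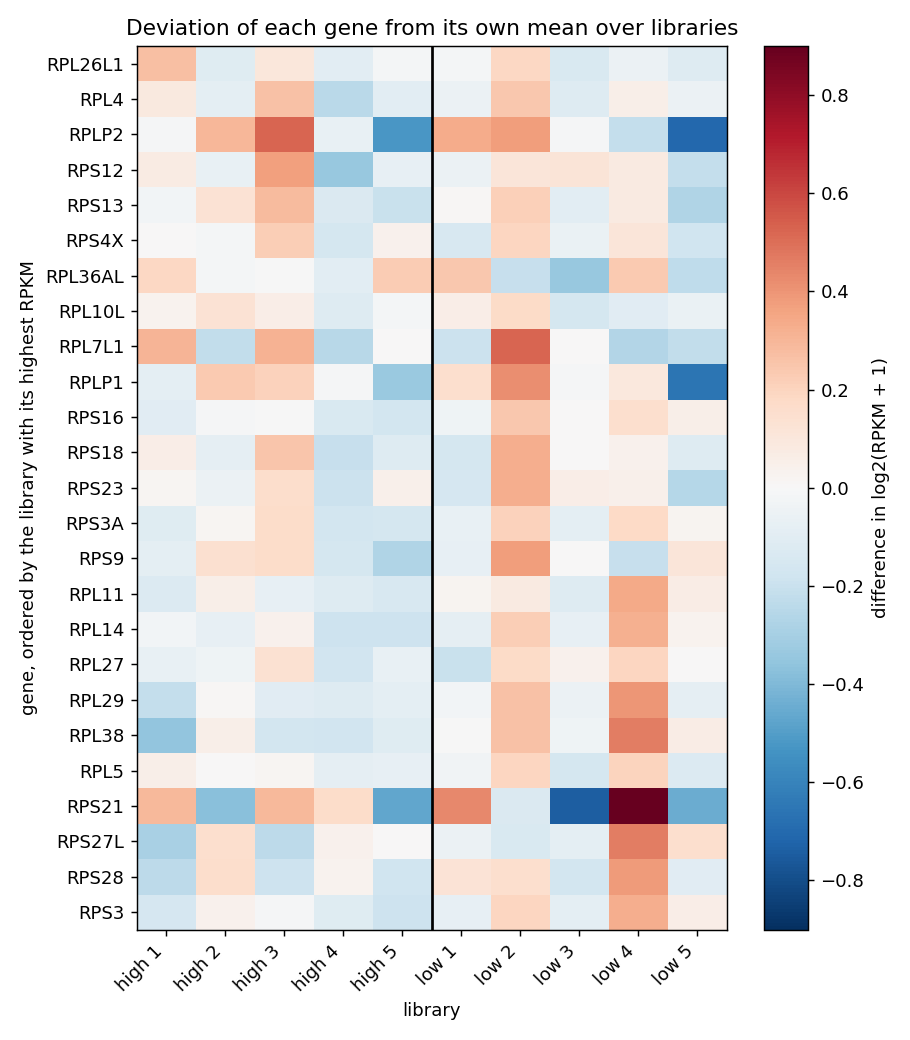
Deviation of log2(RPKM + 1) from each gene's own mean over the 10 libraries, for 25 of the 28 genes, high left and low right of the line, with genes ordered by the library that holds their highest RPKM. Low replicate 2 is above the mean for most genes, low replicate 4 for a set led by RPS21, RPS27L and RPL38, and RPLP1 and RPLP2 are lowest in low replicate 5.

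Some marker sums stood out in some of these libraries and not in others. Low replicates 2 and 4 had the highest summed level of T and NK cell markers, 56.3 and 55.1 RPKM. The range was 19.7 to 36.7 RPKM in high and 26.2 to 56.3 RPKM in low. From 11 listed genes 10 identifiers were matched, with GZMA matched more than once, and all 10 lay above 0. Low replicate 2 also had the highest summed level of Kupffer cell and macrophage markers (4 of 8 matched), 378 RPKM (205 to 263 RPKM in high, 210.2 to 378 RPKM in low), and of B and plasma cell markers (4 of 7 matched), 10.16 RPKM (1.98 to 3.59 RPKM in high, 2.02 to 10.16 RPKM in low). C1QA held 301 RPKM of the Kupffer cell and macrophage sum, and CD68 and CSF1R were also highest there. MARCO, on the same list, had its lowest value of the 10 libraries there, 3.21 RPKM. MZB1 held 8.89 RPKM of the B and plasma cell sum. Low replicate 2 had the lowest summed level of hepatocyte markers (8 of 10 matched), 52306 RPKM, in a range of 59951 to 81424 RPKM in high and 52306 to 82029 RPKM in low. ALB and FGB held most of that sum, with 22922 and 20988 RPKM. ALB was at its lowest of the 10 libraries there, while FGB and HPX lay above their means over the libraries (19393 and 2878 RPKM). The other matched hepatocyte markers lay below their means. High replicate 3, also high in ribosomal protein messages, had the lowest summed level of hepatocyte markers in the high group, 59951 RPKM, with 22.9 RPKM of T and NK cell markers and 207 RPKM of Kupffer cell and macrophage markers. Its ALB was the lowest in high, 23864 RPKM, while its FGB was the highest of the 10 libraries, 30170 RPKM. Low replicate 4 had 243 RPKM of Kupffer cell and macrophage markers and 69283 RPKM of hepatocyte markers, both within the range of high. A sum held mostly by ALB and FGB cannot tell fewer hepatocytes from a change in these messages. The part of these marker levels, and of the mitochondrial share of 20.2% in low replicate 4, in the levels of the ribosomal protein genes was not tested.

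Among the other marker lists, red blood cell markers summed to 64.4 to 228 RPKM in high and 98.9 to 208 RPKM in low (4 genes), and endothelial markers to 40.1 to 60.7 RPKM in high and 32.1 to 74.0 RPKM in low (3 genes). Stellate cell and fibroblast markers summed to 44.6 to 76.2 RPKM in high and 37.7 to 119 RPKM in low (5 genes). Cholangiocyte markers (3 genes) stayed under 6 RPKM in every library. Neutrophil markers (2 genes) reached 2.54 RPKM in high and 5.60 RPKM in low. Exocrine pancreas markers (4 genes, PNLIP at 0 in every library) reached 1.82 RPKM in high and 3.53 RPKM in low. Nearly all of this was CPA1, with 1.77 RPKM in high replicate 5 and 3.53 RPKM in low replicate 4. The muscle marker ACTA1 reached 0.05 RPKM in high and 0.10 RPKM in low.

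Related genes of the ribosome outside the naming rule did not pass either. RACK1, a scaffold protein on the small subunit, had 365 ± 44.6 RPKM in high and 368 ± 51.6 RPKM in low (SD, n = 5 each). FAU, which encodes a small subunit protein fused to a ubiquitin-like protein, had 33.0 ± 6.27 RPKM in high and 27.1 ± 5.70 RPKM in low, with a log2 difference of 0.28 (adjusted p = 0.961 in limma). Of 17 other messages known to carry the pyrimidine tract, 11 were matched and tested, 0 passed in either direction, and 7 had the higher mean in high. Among them were EIF3L, a subunit of initiation factor eIF3, with 68.3 ± 11.2 RPKM in high and 57.7 ± 8.31 RPKM in low, and the translocation factor gene EEF2 with 300.5 ± 54.3 RPKM in high and 268 ± 74.3 RPKM in low. EIF3H had 70.2 ± 4.93 RPKM in high and 75.0 ± 11.1 RPKM in low, and EIF3E had 47.2 ± 4.19 RPKM in high and 50.1 ± 6.57 RPKM in low.

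Of 35 listed initiation factor genes 25 were tested, with 19 higher in high and 6 higher in low on the mean log2 scale, a median difference of 0.09, and 0 past the threshold. Over all genes tested, 48.8% were higher in high and 51.2% in low. The scaffold gene EIF4G1 had 92.4 ± 14.1 RPKM in high and 78.4 ± 15.9 RPKM in low (SD, n = 5 each), and EIF4G2 had 182 ± 31.5 RPKM in high and 152 ± 59.2 RPKM in low. The helicase gene EIF4A2 had 197 ± 18.4 RPKM in high and 229.8 ± 42.4 RPKM in low, and EIF4G3 had 8.20 ± 1.13 RPKM in high and 9.04 ± 0.344 RPKM in low. Whether initiation factors and ribosomal proteins differed from each other was not tested.

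Of 46 listed genes of ribosome assembly 34 were tested, with 17 in each direction, a median difference of 0.00 and 0 past the threshold. POLR1D, a subunit shared by RNA polymerases I and III, had 72.3 ± 17.0 RPKM in high and 99.6 ± 25.6 RPKM in low (SD, n = 5 each), and the GTPase gene LSG1 had 22.7 ± 7.15 RPKM in high and 30.9 ± 9.85 RPKM in low. The small nucleolar ribonucleoprotein gene GAR1 had 1.71 ± 0.922 RPKM in high and 2.24 ± 1.05 RPKM in low, and the kinase gene RIOK1 had 5.93 ± 2.47 RPKM in high and 4.83 ± 0.939 RPKM in low. The median coefficient of variation of these genes over the libraries was 30.7%, against 12.3% for the ribosomal proteins, at a lower median level of 8.56 RPKM against 280.4 RPKM.

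Of 24 listed genes of mTOR, S6 kinase and MYC control 19 were tested, with 7 higher in high and 12 higher in low on the mean log2 scale, a median difference of -0.03 and 0 past the threshold. MTOR, the kinase at the head of this pathway, had 6.94 ± 1.33 RPKM in high and 5.32 ± 0.864 RPKM in low (SD, n = 5 each), with a log2 difference of 0.32 (unadjusted p = 0.0425, adjusted p = 0.961 in limma). AKT1S1, an inhibitor of the kinase complex, had 15.0 ± 2.02 RPKM in high and 18.5 ± 3.47 RPKM in low. TSC2, which restrains the pathway, had 3.96 ± 0.268 RPKM in high and 4.59 ± 0.978 RPKM in low, and the S6 kinase family gene RPS6KA3 had 4.22 ± 1.26 RPKM in high and 3.49 ± 0.922 RPKM in low.

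Beside the cytosolic ribosome, the 44 tested genes of the mitochondrial ribosome had 18 higher in high and 26 higher in low on the mean log2 scale, with a median difference of -0.03, 0 past the threshold and 1 at an unadjusted p under 0.05. Their median level was 15.9 RPKM, against 280.4 RPKM for the cytosolic genes, and their median coefficient of variation was 15.9%, against 12.3%. The 21 tested proteasome subunit genes had 12 higher in high and 9 higher in low, a median difference of 0.01 (log2), 0 past the threshold and 1 at an unadjusted p under 0.05, and a median coefficient of variation of 11.7%. These medians were not tested against each other. Over all genes tested, 4.55% had an unadjusted p under 0.05 in limma, and 48.8% had the higher mean log2 in high.

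In the authors' deposited comparison, 14 of the 28 genes had a positive signed fold and 14 a negative one, and 1 of them, RPL38, had a p under 0.05, where 547 of the 10931 tested genes did. The deposited fold had the sign opposite to the log2 difference, high minus low, in 23 of the 28, which makes a positive fold the direction of low. The others were RPL4, RPL5, RPS12, RPS18 and RPS23, whose log2 differences lay between -0.04 and -0.01. The file header does not say which values or test lie behind the deposited fold and p.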

How the data were processed

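Liver RNA of 10 samples was sequenced as TruSeq v2 libraries in paired reads on an Illumina HiSeq, per the labels' protocols. The deposited table gives RPKM per library and Ensembl identifier, per the file headers. Sscrofa 10.2 is the build named by the submitters' processing notes. Not given in the sources used here are the aligner, counter and annotation release. The deposited table also holds the authors' fold change, a signed score, and the authors' p-value, whose test is not stated. In 624 RPKM values the first of a pair of dots was read as a digit-group mark. A name table gave a symbol to 11779 of the 25009 identifiers.

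Genes averaging 1 RPKM or more over the libraries (10931) were tested as log2(RPKM + 1) with limma 3.58.1 in R 4.3.3 (trend, two-sided, high minus low, Benjamini-Hochberg, threshold 0.05), with no covariates. This scale understates the change of low genes. The fit was tested on simulated data. The ribosomal protein genes and the lists were chosen with earlier results of these data known. Results of 3 of the 28 genes are not reported here one by one. The other 25 are named, and up to 4 genes with the smallest p from each other translation list. Relative depth came from the ratio of the smallest values (under 0.01 RPKM) between libraries, on as few as 4 genes, and no counting interval is given. Alternatives were another pseudocount, filters, scalings, weights and leaving out libraries. Count tests in the plan did not apply to RPKM. Sequences were not analysed here.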

Additional observations from a re-analysis of the deposited data

Results flagged for a closer look

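Of 52 groups of 5 libraries examined, for 25 of the genes and the sum of all 28, 1 held a library far from the others of its group, where chance flags about 1 in 20. RPL7L1 had 22.1 RPKM in low replicate 2, against 12.3 to 15.1 RPKM in the other low libraries. Low replicate 2 also had the highest median deviation of all genes tested, 0.12 on the log2 scale, and its part in this value was not tested.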

How the results depend on the processing

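Under every alternative run, 0 of the 28 genes and 0 of all genes tested passed the adjusted threshold in limma. RPL38 was the gene that crossed an unadjusted p of 0.05, which gave a count of 1 with a pseudocount of 0.1, without a filter, with a mean of at least 5 RPKM and in limma without trend, and 0 to 1 with a library left out. Leaving out a library gave 12 to 24 genes with the higher mean in low. Over all genes the count at an unadjusted p under 0.05 was 912 without a filter, 266 with a mean of at least 5 RPKM, 864 with arrayWeights, 199 without both high replicates 1 and 5, and 280 to 819 with a library left out (280 without high replicate 1, 331 without low replicate 4, 819 without low replicate 2). The log2 ratio of the summed level kept its sign in all alternatives run.

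Of 450 log2 differences of the 25 genes under alternatives, 47 had the other sign, in genes whose intervals all include 0, and 11 of the 25 genes kept their sign throughout. With quantile normalization the other sign was found for RPL4 (0.041), RPL5 (0.045), RPS12 (0.059), RPS18 (0.038) and RPS23 (0.050). With arrayWeights it was found for RPL7L1 (-0.10), RPS13 (-0.016), RPS21 (0.13) and RPS4X (-0.039). Without both high replicates 1 and 5 it was found for RPL26L1 (-0.0061), RPL7L1 (-0.022), RPS21 (0.0072) and RPS9 (0.012). With a library left out the ranges that crossed 0 were -0.00047 to 0.083 for RPL10L, -0.0021 to 0.11 for RPL26L1, -0.10 to 0.027 for RPL4, -0.075 to 0.016 for RPL5, -0.010 to 0.20 for RPL7L1, -0.16 to 0.11 for RPLP1, -0.079 to 0.23 for RPLP2, -0.11 to 0.068 for RPS12, -0.045 to 0.078 for RPS13, -0.11 to 0.038 for RPS18, -0.23 to 0.20 for RPS21, -0.074 to 0.071 for RPS23, -0.016 to 0.087 for RPS4X and -0.14 to 0.0032 for RPS9. The cause was not tested. No paired analysis was possible because the labels number no replicates. Absolute depth is unknown, so counting error could not be separated from the spread between libraries.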
